A study of Mus musculus with 6 samples.

Results

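The 10 genes described here carry out MHC class I antigen presentation in the mouse or encode PD-L1. They were taken by name from 35275 genes in the deposited expression table: the classical class I heavy chains H2-K1 and H2-D1, the light chain B2m, the peptide transporter genes Tap1 and Tap2, the loading factor Tapbp, the immunoproteasome subunits Psmb8, Psmb9 and Psmb10, and Cd274, which encodes PD-L1. The cells were ID8-KMF, a mouse ovarian cancer line of strain C57Bl6/J obtained by passaging ID8 cells in vivo. Both groups were Rgnef-/-. In 3 libraries the knockout cells also carried lentiviral GFP-Rgnef (the GFP-Rgnef group), and in the other 3 they did not (the knockout group). Rgnef, listed under the symbol Arhgef28, is a guanine nucleotide exchange factor. Cells were harvested while subconfluent, growing on plastic seeded with 0.2% Matrigel. No parental cells with the endogenous gene, and no cells with an empty vector, were analysed here, and the labels do not say whether either line was 1 clone, which promoter drove GFP-Rgnef, or whether libraries came from separate cultures. The p-values therefore rest on library-to-library spread alone, part or all of which may be technical.

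Class I molecules display peptides from inside the cell to CD8+ T cells. Peptides are cut by the proteasome, carried into the endoplasmic reticulum by the transporter that Tap1 and Tap2 encode, and loaded onto a heavy chain paired with B2m in a complex that tapasin, the product of Tapbp, bridges to the transporter. Interferon-gamma induces many of these genes through factors that include IRF1 and the transactivator NLRC5, and it exchanges the catalytic proteasome subunits Psmb5, Psmb6 and Psmb7 for Psmb8, Psmb9 and Psmb10. PD-L1 is an interferon-inducible ligand that restrains T cells through PD-1.

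The libraries held 15898965 to 17977069 reads, and 10572 to 10756 genes per library had an FPKM of at least 1. FPKM is a read count per kilobase of transcript, scaled to the depth of the library. The targeted gene matched the labels: Arhgef28 was at 52.7 ± 3.93 FPKM in GFP-Rgnef libraries and 0.120 ± 0.0123 in knockout libraries (SD, n = 3 each). Of the fixed ovarian surface and mesothelial markers, 6 of 8 were expressed highly enough to test, with Wt1 at 191.4 and 201.4 FPKM and Msln at 175.9 and 153.8 in the GFP-Rgnef and knockout groups. Of these 6, Krt18 fell (log2 difference -0.51, limma adjusted p = 0.00625). Upk3b, at 92.3 ± 43.1 and 251 ± 117 FPKM (SD, n = 3 each), had overlapping groups and did not pass (log2 difference 1.43, limma adjusted p = 0.0878). It was lowest in library 3 of both groups, at 119.5, 114.7 and 42.6 FPKM in GFP-Rgnef and 319.1, 317.8 and 116.3 in knockout libraries. With 1 library left out, the limma adjusted p of Upk3b was 0.0204 to 0.261. Of 8 leukocyte markers 6 were at 0 in all libraries, and the 8 summed to 0.0397 to 0.259 FPKM in GFP-Rgnef and 0.0394 to 0.0764 in knockout libraries. Of 8 macrophage markers 1 was tested, Cd68, at 2.62 and 2.83 FPKM in GFP-Rgnef and knockout cells (limma adjusted p = 0.85). Of 5 endothelial markers 1 was tested, Tek, at 103.8 ± 7.15 and 124.3 ± 33.6 FPKM (SD, n = 3 each). Its limma adjusted p was 0.495, and 0.011 to 0.851 with 1 library left out. The libraries numbered 3 stood apart in both groups: their deviations from the group means correlated at 0.552 over genes, and those of library 3 of one group with libraries 1 and 2 of the other at -0.2 to -0.523. Where leaving out both of them changed a call on a member, or on a gene or list count described below, the value without them is given.

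The 300-base promoter windows of 5 members are shown to set the abundant members beside Tap1, which had few reads, for the known letters of interferon and NF-kB factors. Windows lie mostly upstream of the RefSeq start in GRCm38.p6 and include its first bases, and 9 of the 10 members had one; Tap2 had none. Capitals mark matches on either strand to the interferon-stimulated response element ISRE (GAAA, any 2 bases, GAAA), the gamma-activated site GAS (TTCNNNGAA), the NF-kB consensus, the CRE core TGACG and the CCAAT box. Windows of H2-K1 (chr17:34000298-34000597, minus strand), H2-D1 (chr17:35262844-35263143, plus), B2m (chr2:122147437-122147736, plus), Tapbp (chr17:33919228-33919527, plus) and Tap1 (chr17:34187306-34187605, plus) read 5′ to 3′ as follows.
H2-K1: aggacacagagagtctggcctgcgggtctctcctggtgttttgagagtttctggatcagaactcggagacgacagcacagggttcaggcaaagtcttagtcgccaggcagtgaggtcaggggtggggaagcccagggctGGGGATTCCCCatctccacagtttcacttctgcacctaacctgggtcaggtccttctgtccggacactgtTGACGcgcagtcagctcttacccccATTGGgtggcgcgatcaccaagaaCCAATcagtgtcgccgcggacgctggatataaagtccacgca
H2-D1: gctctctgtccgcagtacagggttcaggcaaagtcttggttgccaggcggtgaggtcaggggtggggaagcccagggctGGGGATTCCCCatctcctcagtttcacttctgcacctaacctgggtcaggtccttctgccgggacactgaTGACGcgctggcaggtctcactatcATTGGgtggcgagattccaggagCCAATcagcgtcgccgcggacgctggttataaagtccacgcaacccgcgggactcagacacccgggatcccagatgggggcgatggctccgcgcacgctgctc
B2m: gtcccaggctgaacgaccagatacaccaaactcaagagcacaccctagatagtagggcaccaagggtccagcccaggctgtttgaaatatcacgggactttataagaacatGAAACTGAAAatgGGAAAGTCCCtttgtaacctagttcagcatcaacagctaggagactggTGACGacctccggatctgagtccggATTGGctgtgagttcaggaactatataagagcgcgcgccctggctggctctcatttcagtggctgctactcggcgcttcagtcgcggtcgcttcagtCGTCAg
Tapbp: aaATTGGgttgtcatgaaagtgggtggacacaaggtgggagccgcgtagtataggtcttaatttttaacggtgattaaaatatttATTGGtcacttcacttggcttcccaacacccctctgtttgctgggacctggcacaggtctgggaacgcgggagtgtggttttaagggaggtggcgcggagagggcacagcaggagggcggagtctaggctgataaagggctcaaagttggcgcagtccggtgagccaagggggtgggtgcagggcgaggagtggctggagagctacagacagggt
Tap1: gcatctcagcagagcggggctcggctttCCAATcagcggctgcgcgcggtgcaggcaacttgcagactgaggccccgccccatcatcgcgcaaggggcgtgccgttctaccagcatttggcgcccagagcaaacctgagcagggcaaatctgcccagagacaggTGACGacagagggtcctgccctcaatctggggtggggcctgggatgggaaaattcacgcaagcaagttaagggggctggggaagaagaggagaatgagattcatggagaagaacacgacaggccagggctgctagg

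Both heavy chain windows held the same letters in the same order: a pair of overlapping NF-kB matches, a CRE core and 2 CCAAT boxes. They aligned with 206 of 227 bases identical (90.7%). The NF-kB matches began at position -111 from the start in H2-K1 and at -171 in H2-D1. Such positions depend on the RefSeq start used: in a further H2-K1 window, not shown, the matches began at -125. B2m was the single member with a match to the ISRE letters as spelled here, at position -139 from its start. It also had an NF-kB match and 2 CRE cores. Tapbp held 2 CCAAT boxes and none of the other letters, and Tap1 held 1 CRE core and 1 CCAAT box. Of the windows not shown, Psmb9 shared 275 bases with the Tap1 window on the opposite strand, Psmb8 had 1 GAS match, and Psmb10 and Cd274 had no match. Over all 32851 windows, 3.44% held an ISRE, 8.3% a GAS, 8.46% an NF-kB, 20.8% a CRE core and 37.4% a CCAAT match, so the last are common letters. These are matches of letters in a short window and not measured binding. The patterns are strict, and an element that departs from them in any fixed letter is not marked. A window without a match, those of the heavy chains for the ISRE included, may therefore still hold such an element.

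Of the members, 1 fell in the knockout, Tapbp, and none rose. The other 4 expressed members (H2-K1, H2-D1, B2m and Psmb10) did not pass the test, and 5 (Tap1, Tap2, Psmb8, Psmb9 and Cd274) had a mean under 0.5 FPKM and were not tested. The test was limma with an intensity trend on log2(FPKM + 1) over 11500 genes, with calls at a Benjamini-Hochberg adjusted p below 0.05 and differences taken as knockout minus GFP-Rgnef. On this scale 13.4% of all tested genes were called, 8.04% higher and 5.34% lower. The median difference of the 5 tested members was -0.18, and that of all genes tested -0.02. Groups did not overlap in 2 of the 5, Tapbp lower and H2-K1 higher in the knockout, where 33.4% of all tested genes did not overlap. In bulk RNA, fewer cells that express a gene and less RNA per cell cannot be told apart.

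**Figure D1:**
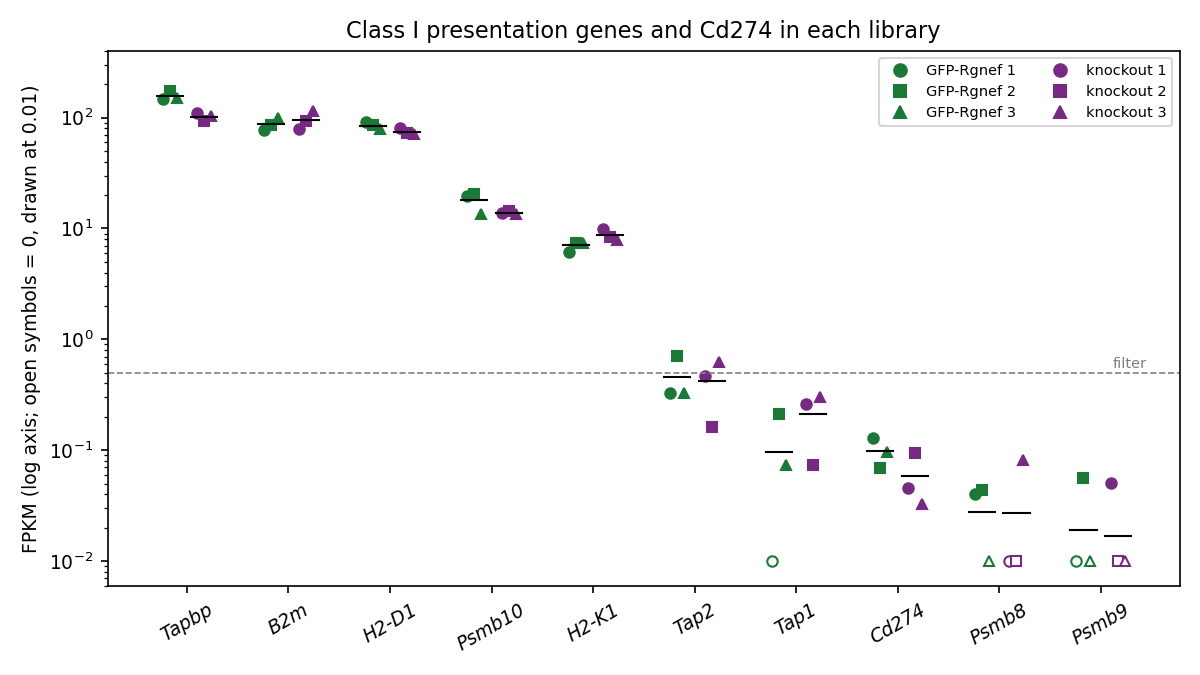
FPKM of each of the 10 members by library on a log axis, with symbols for single libraries, short lines for group means, open symbols at the foot of the plot for values of 0, and a dashed line at the filter of 0.5 FPKM. Tapbp lies at 146 to 174 in GFP-Rgnef and 93.8 to 109 in knockout libraries without overlap, and Tap1, Tap2, Psmb8, Psmb9 and Cd274 lie below 1.

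Levels per length spread the members over a wide range. In GFP-Rgnef cells the order by mean FPKM was Tapbp, B2m, H2-D1, Psmb10, H2-K1, Tap2, then Cd274, Tap1, Psmb8 and Psmb9. The ranges of B2m and H2-D1 overlapped, as did each neighbouring pair from Cd274 down to Psmb9, and other neighbours were separate. In knockout cells Tapbp, B2m and H2-D1 overlapped in turn, Psmb10 and H2-K1 were separate from their neighbours, and the range of Tap2 overlapped that of Tap1, which came next. H2-D1, B2m and Tapbp were thus abundant, while neither transporter gene exceeded 0.709 FPKM in any library. The lengths that turn FPKM into whole reads, for instance 904 bases for H2-D1 and 1058 for Tapbp, are shorter than the annotated exons of these genes, so levels between genes carry that uncertainty, while differences between groups do not.

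Tapbp encodes tapasin, the chaperone that holds an empty class I molecule near the transporter (ENSMUSG00000024308, chr17:33915899-33929292, plus strand in GRCm38). It stood at 146, 174 and 151 FPKM (2634, 2927 and 2768 reads) in the GFP-Rgnef libraries and at 109, 93.8 and 102 FPKM (2080, 1728 and 1815 reads) in the knockout libraries. Every knockout library was below every GFP-Rgnef library. The means were 157 ± 14.7 and 101.9 ± 7.78 FPKM (SD, n = 3 each), a log2 difference of -0.62 (SE 0.087, 95% interval -0.82 to -0.42) and a limma adjusted p of 0.00445. The call held under all 16 alternative settings, with the adjusted p between 0.00969 and 0.0246 when any 1 library was left out. Tapbp exons overlap Zbtb22 on the same strand by 149 bases. Zbtb22 was at 24.8 and 24.5 FPKM with a log2 difference of -0.03 (limma adjusted p = 0.91). Of the 50-base words in Tapbp transcripts, 23.2% also occur in other annotated transcripts, most often those of its antisense partner Gm19412, which was at 0.

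Distances were taken from the annotated gene start of Tapbp (33915899), which lies upstream of the promoter window shown above. Within 500 kb of that gene start, 27 other genes were tested, H2-K1 among them. Of these 1 was called, Brd2, a bromodomain protein, with a log2 difference of -0.24 (limma adjusted p = 0.0486). The median difference of the 27 was -0.10 and 3.7% were called, against 13.4% of all genes. Of all tested genes, 5.34% were lower and 8.04% higher. Over the stretch from the Tapbp start to the H2-M3 end, 81 genes other than the members were tested. Of these, 12 were lower and 1 higher (16% called, median -0.12). On the whole of chromosome 17, 45 of 569 non-member genes were lower and 10 higher (9.67% called, median -0.07). The call for Tapbp held when the median deviation of each chromosome was removed from each library.

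**Figure D2:**
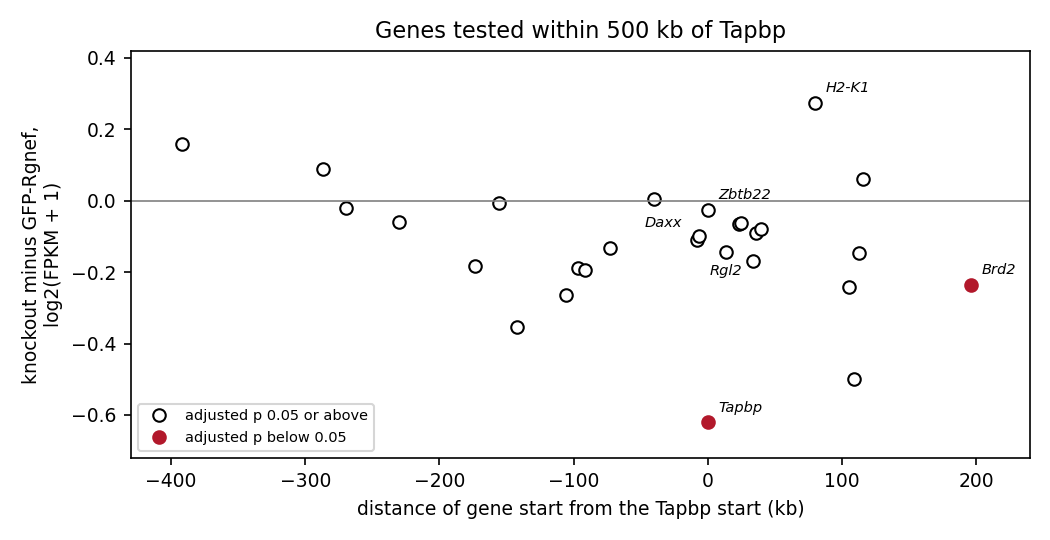
Log2 difference, knockout minus GFP-Rgnef, of the tested genes within 500 kb of Tapbp against the distance of their start from the Tapbp start in kb, with filled points for an adjusted p below 0.05. Tapbp at -0.62 lies below its neighbours, among which Brd2 at -0.24 is the other called gene.

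H2-K1 and H2-D1 encode the polymorphic heavy chains that hold the peptide. H2-D1 (ENSMUSG00000073411, chr17:35262730-35267499, plus strand) was at 91.0, 85.1 and 78.1 FPKM (1399, 1223 and 1220 reads) in GFP-Rgnef and 81.0, 72.1 and 70.8 FPKM (1316, 1135 and 1071 reads) in knockout libraries. The groups overlapped, since 1 knockout library exceeded 1 GFP-Rgnef library, and the log2 difference of -0.18 (SE 0.082, 95% interval -0.37 to 0.01) had a limma adjusted p of 0.192. H2-K1 (ENSMUSG00000061232, chr17:33996017-34000347, minus strand) was about an order of magnitude lower, at 6.19, 7.46 and 7.44 FPKM (118, 133 and 144 reads) against 9.88, 8.35 and 7.94 FPKM (199, 163 and 149 reads). All 3 knockout libraries were above all 3 GFP-Rgnef libraries, with means of 7.03 ± 0.729 and 8.72 ± 1.02 FPKM (SD, n = 3 each). The log2 difference was 0.28 (SE 0.111, unadjusted 95% interval 0.02 to 0.53), and the limma adjusted p of 0.146 did not pass. Of the 50-base words in H2-K1 transcripts, 9.63% occur in other genes and 4.08% in H2-D1. Of H2-D1 words 12.8% occur in other genes and 5.44% in H2-K1. Of 100-base words, 0% were shared between H2-K1 and H2-D1. Whether some reads could be assigned to either thus depends on read length.

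Every classical class I molecule pairs 1 of these heavy chains with B2m. The balance of the heavy chains was compared within each library, a measure chosen after their values were seen. H2-K1 made up 6.37%, 8.06% and 8.69% of the summed FPKM of both chains in GFP-Rgnef libraries and 10.9%, 10.4% and 10.1% in knockout libraries. The means were 7.71% ± 1.2 and 10.4% ± 0.395 (SD, n = 3), with an exact two-sided permutation p of 0.1, the smallest that 3 against 3 allows. The sum of both chains was 91.75 ± 5.84 FPKM in GFP-Rgnef and 83.3 ± 6.56 in knockout cells.

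B2m, the light chain shared by class I molecules (ENSMUSG00000060802, chr2:122147686-122153083, plus strand), was at 77.4, 85.2 and 99.4 FPKM (1133, 1165 and 1477 reads) and 79.2, 92.5 and 113 FPKM (1225, 1385 and 1633 reads). The groups overlapped through most of their range. The log2 difference was 0.11 (SE 0.138, 95% interval -0.20 to 0.43, limma adjusted p = 0.661). The libraries numbered 3 were the highest in both groups, 0.29 and 0.40 above the mean of libraries 1 and 2 on the log2 scale, and without knockout library 3 the difference was -0.02. B2m per unit of summed heavy chain was 0.797, 0.921 and 1.16 in GFP-Rgnef and 0.872, 1.15 and 1.44 in knockout libraries (exact two-sided permutation p = 0.5, n = 3 each).

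**Figure D3:**
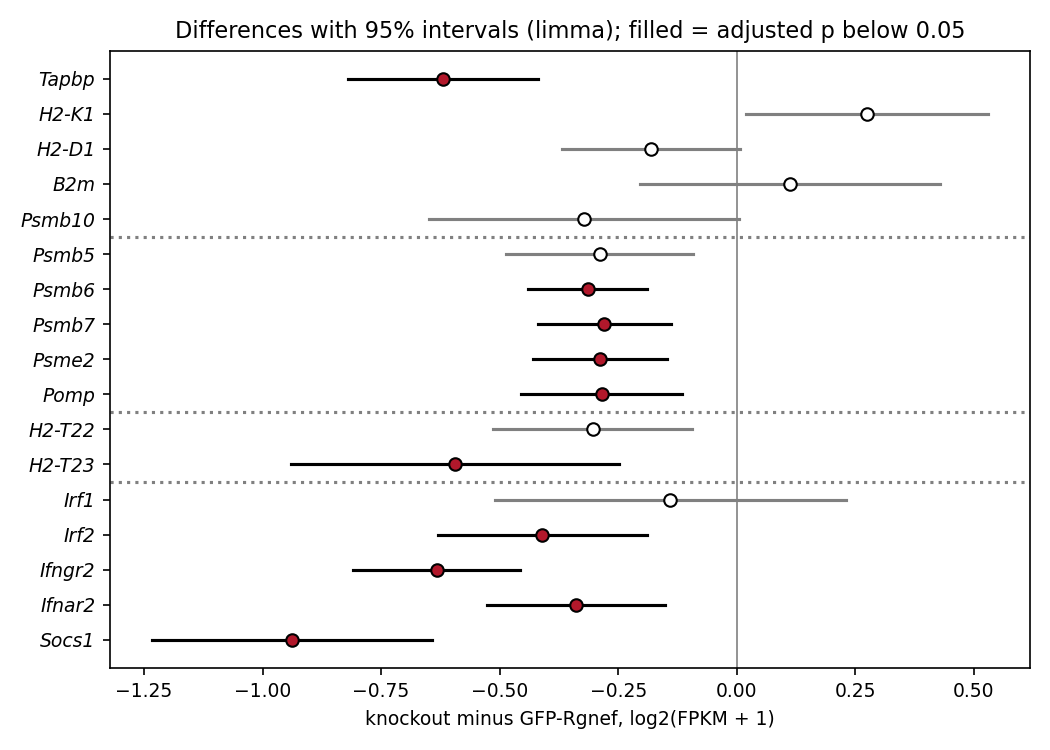
Log2 difference, knockout minus GFP-Rgnef, on the log2(FPKM + 1) scale for the 5 tested members (above the first dotted line), then named proteasome genes, other heavy chains, and class I transactivator and interferon genes. Lines are 95% intervals from limma and filled points have an adjusted p below 0.05: the interval of Tapbp, -0.82 to -0.42, lies wholly below 0, and those of H2-D1 (-0.37 to 0.01) and B2m (-0.20 to 0.43) span 0.

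Both transporter genes had few reads, and neither was tested with the filter. Tap1 (ENSMUSG00000037321, chr17:34187553-34197225, plus strand) had 0, 8 and 3 reads in GFP-Rgnef and 11, 3 and 12 reads in knockout libraries, or 0 to 0.213 and 0.0729 to 0.303 FPKM. The groups overlapped. The summed reads of 11 and 26 gave a rate ratio of 2.28 with an interval of 1.09 to 5.10 that covers counting error only and not the spread between libraries. Without a filter on low values, where 5.69% of 19655 genes were called, the log2 difference was 0.15 (limma adjusted p = 0.516). Tap2 (ENSMUSG00000024339, chr17:34203527-34216321, plus strand) had 8, 16 and 8 reads against 12, 4 and 15, or 0.331, 0.709 and 0.326 FPKM against 0.470, 0.162 and 0.631. Sums of 32 and 31 reads gave a rate ratio of 0.933 (counting interval 0.550 to 1.58). The exons of Tap1 and Psmb9 overlap by 212 bases on opposite strands, and the handling of strand was not given, so a read in that stretch could belong to either.

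Immunoproteasome subunits differed among themselves by a wide margin. Psmb10 (ENSMUSG00000031897, chr8:105935735-105938444, minus strand), which replaces Psmb7, was at 19.6, 20.6 and 13.6 FPKM (424, 416 and 298 reads) in GFP-Rgnef and 13.9, 14.3 and 13.6 FPKM (317, 316 and 289 reads) in knockout libraries. GFP-Rgnef library 3 lay level with the lowest knockout library, and the other two lay above all knockout libraries. Over all libraries the log2 difference was -0.32 (SE 0.142, 95% interval -0.65 to 0.00, limma adjusted p = 0.182). Without GFP-Rgnef library 3 it was -0.50 with a limma adjusted p of 0.0105, in a fit that called 12% of genes (7.38% higher, 4.61% lower). Without both libraries numbered 3 it was -0.48 with a limma adjusted p of 0.00445, where 20.4% of genes were called (11.2% higher, 9.25% lower). With the replicate number as a block, which the libraries' deviations do not bear out as a pairing, 24.1% of genes were called (13.2% higher, 10.9% lower), and the limma adjusted p of Psmb10 was 0.0451. Psmb8 (ENSMUSG00000024338, chr17:34197721-34201454, plus strand), the counterpart of Psmb5, had 2 reads summed over each group. Psmb9 (ENSMUSG00000096727, chr17:34181987-34187764, minus strand), the counterpart of Psmb6, had 1 read in each. Even summed over a group, the reads of both were under the floor of 3. In a single library 3 reads correspond to 0.116 to 0.131 FPKM for Psmb8 and 0.154 to 0.174 for Psmb9. No fold is therefore given, and a difference was not detectable at this depth.

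The constitutive partners were abundant. Psmb5 was at 131, 127 and 139 FPKM in GFP-Rgnef and 102, 101 and 122 in knockout libraries, with a log2 difference of -0.29 (limma adjusted p = 0.0609). Psmb5 was called without knockout library 3 (-0.38, limma adjusted p = 0.0148) and without both libraries numbered 3 (-0.34, limma adjusted p = 0.00535). Psmb6 fell from 212 ± 4.44 to 170.3 ± 3.14 FPKM (SD, n = 3 each; log2 difference -0.31, limma adjusted p = 0.0091), and Psmb7 from 241 ± 7.26 to 199 ± 9.04 (-0.28, limma adjusted p = 0.0218). The call for Psmb6 was lost without GFP-Rgnef library 2 (limma adjusted p = 0.051), and that for Psmb7 without GFP-Rgnef library 1 or 2 or knockout library 1 or 2 (limma adjusted p = 0.0581 to 0.0968). Psmb10 as a percentage of Psmb7 was 8.41, 8.49 and 5.48 in GFP-Rgnef and 7.37, 7.05 and 6.63 in knockout libraries. The log2 ratio differed by -0.06 (exact two-sided permutation p = 1, smallest possible 0.1, n = 3 each), and this was the 1 ratio of 3 that could be tested. The ratios of Psmb8 and Psmb9 were not tested, since both are under the floor. Psmb7 exons overlap Nek6 on the opposite strand by 405 bases.

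**Figure D4:**
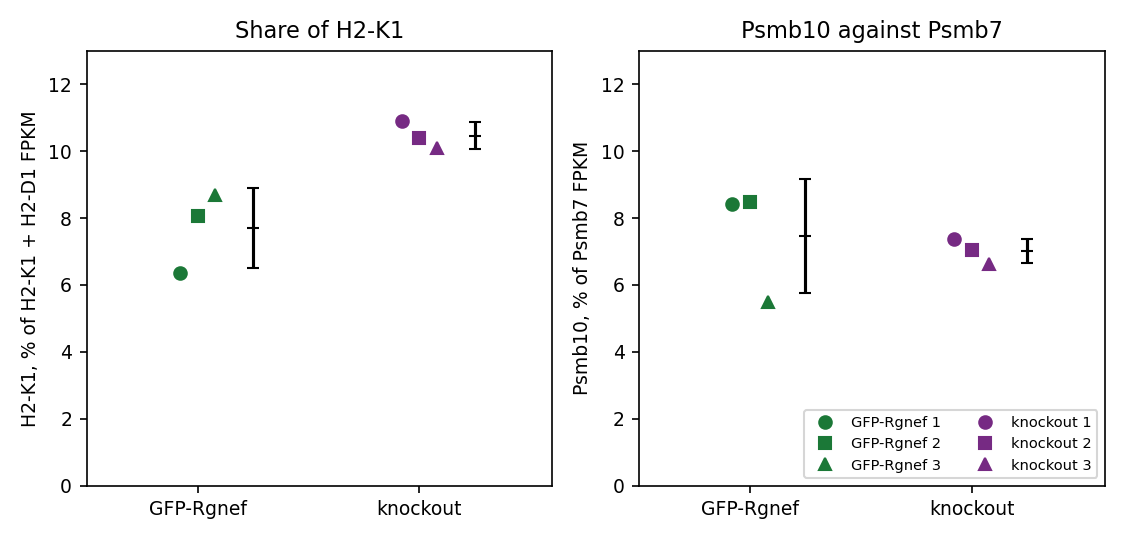
H2-K1 as a percentage of the summed H2-K1 and H2-D1 FPKM (left) and Psmb10 as a percentage of Psmb7 FPKM (right), with a point for each library and bars for the mean ± SD of each group. The share of H2-K1 is 6.37% to 8.69% in GFP-Rgnef and 10.1% to 10.9% in knockout libraries without overlap, and the groups overlap for Psmb10.

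Cd274 (ENSMUSG00000016496, chr19:29367455-29388095, plus strand) was barely detected. It had 8, 4 and 6 reads in GFP-Rgnef and 3, 6 and 2 reads in knockout libraries, or 0.130, 0.0695 and 0.0959 FPKM against 0.0461, 0.0952 and 0.0330. The groups overlapped, and the summed reads of 18 and 11 gave a rate ratio of 0.588 (counting interval 0.251 to 1.32). Without a filter the log2 difference was -0.05 (limma adjusted p = 0.535). The second PD-1 ligand, Pdcd1lg2, was at 0 in every library. Cmtm6, which keeps PD-L1 from degradation at the cell surface, rose from 14.6 ± 0.723 to 18.4 ± 0.822 FPKM (SD, n = 3 each; log2 difference 0.32, limma adjusted p = 0.0306). That call was lost when GFP-Rgnef library 1 or 2, or any 1 knockout library, was left out, and with chromosome medians removed. Nectin2, a ligand of inhibitory and activating lymphocyte receptors, rose from 73.3 ± 2.51 to 90.7 ± 9.22 FPKM (0.30, limma adjusted p = 0.0495), a call lost in 11 of the 16 alternative settings and in all fits that left out 1 library except that without knockout library 2. Without both libraries numbered 3 its difference was 0.21 (limma adjusted p = 0.0791). Of the 20 checkpoint genes listed, 10 were tested, these 2 rose and none fell, with a median of 0.12, where 8.04% of all tested genes rose. The count of 2 was 0 without GFP-Rgnef library 1 or 2, without knockout library 1 or 3, and with chromosome medians removed. When both libraries numbered 3 were left out, 1 rose and 1 fell, in a fit where 11.2% of genes rose and 9.25% fell.

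Of the factors that switch class I genes on, 1 of 12 tested fell (Irf2) and none rose, a share close to the 5.34% of all tested genes that fell and 13.4% called either way. The count was 2 without both libraries numbered 3, in a fit where 9.25% of genes fell. Nlrc5, the class I transactivator, had no read in GFP-Rgnef libraries and 0, 2 and 1 reads in knockout libraries. Irf1 was at 45.2, 48.1 and 32.9 FPKM against 43.0, 39.7 and 31.1 (log2 difference -0.14, limma adjusted p = 0.638), lowest in the libraries numbered 3. Irf2, which binds the same element as IRF1, fell from 14.3 ± 1.37 to 10.5 ± 0.769 FPKM (-0.41, limma adjusted p = 0.0281), a call lost without GFP-Rgnef library 2 or 3 or knockout library 2. The call was also lost with no filter on low values and with chromosome medians removed. The median difference of the 12 was -0.03.

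In the interferon signalling list, 3 of 16 tested genes fell in the knockout (Ifngr2, Socs1 and Ifnar2) and none rose, with a median of -0.02, where 5.34% of all tested genes fell. Without both libraries numbered 3, the same number fell and 1 rose, in a fit where 9.25% of genes fell and 11.2% rose. Ifngr2, a chain of the interferon-gamma receptor, was at 31.5, 31.9 and 32.1 FPKM in GFP-Rgnef and 21.6, 20.6 and 18.5 in knockout libraries. Its log2 difference was -0.63 (SE 0.077, limma adjusted p = 0.00247). Socs1, a feedback inhibitor of JAK kinases, was at 2.79, 3.04 and 2.94 FPKM (58, 59 and 62 reads) against 0.775, 1.08 and 1.32 FPKM (17, 23 and 27 reads). Its log2 difference was -0.94 (SE 0.129, limma adjusted p = 0.00406). Groups were well apart for both genes. The call for Ifngr2 held under every setting run, and that for Socs1 under every setting that tested it. Socs1 was not tested with the filter at a mean of at least 5 FPKM. Ifnar2, a chain of the type I interferon receptor, fell from 11.6 ± 0.121 to 8.99 ± 0.631 FPKM (-0.34, limma adjusted p = 0.0302), a call lost without any 1 GFP-Rgnef library or without knockout library 2 or 3. The call for Ifnar2 was also lost with no filter on low values and with chromosome medians removed.

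Among 18 other class I heavy chains 7 were tested and 1 fell, where 5.34% of all tested genes fell and 13.4% were called either way. H2-T23, a non-classical chain read by natural killer cells, was at 2.89, 1.99 and 2.94 FPKM in GFP-Rgnef and 1.56, 1.08 and 1.5 in knockout libraries (log2 difference -0.59, SE 0.151, limma adjusted p = 0.0366). The groups did not overlap, but among fits that left out 1 library the call was kept only without GFP-Rgnef library 2. In the others the limma adjusted p was up to 0.128. The call for H2-T23 was also lost with no filter on low values and with chromosome medians removed. Without both libraries numbered 3 its limma adjusted p was 0.0542. In this list 1 gene was then called higher and none lower, in a fit where 11.2% of genes were higher and 9.25% lower. H2-T22 was at 8.48, 8.33 and 7.64 FPKM against 6.97, 6.02 and 6.26 (-0.30, limma adjusted p = 0.064). Among 14 genes of peptide loading and trimming none was called, with a median of 0.03: Hspa5 (BiP) was at 760 ± 129 and 924 ± 132 FPKM (0.29, limma adjusted p = 0.239) and Calr (calreticulin) at 575 ± 76.7 and 615 ± 91.6 (0.09, limma adjusted p = 0.705; SD, n = 3 each). Hspa5 was called higher without both libraries numbered 3 (0.26, limma adjusted p = 0.0127). All 9 tested proteasome counterparts and activators had negative differences (median -0.28), as did 6116 of all 11500 tested genes. Against 5.34% of all tested genes, 4 of the 9 fell. Beside Psmb6 and Psmb7 these were the activator subunit Psme2 (95.4 ± 4.2 to 77.9 ± 1.46 FPKM, -0.29, limma adjusted p = 0.0198) and the assembly factor Pomp (163 ± 11.3 to 134.0 ± 7.59, -0.28, limma adjusted p = 0.0397). That count was 0 without GFP-Rgnef library 2, 1 without knockout library 1 or 2, and 2 without GFP-Rgnef library 1 or with chromosome medians removed. Without both libraries numbered 3 it was 6, in a fit where 9.25% of genes fell. Psme2 lost its call without GFP-Rgnef library 2 or knockout library 1 or 2, and Pomp without any 1 library except knockout library 3. Both also lost it with chromosome medians removed, and Pomp with no filter on low values and without trend.

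**Figure D5:**
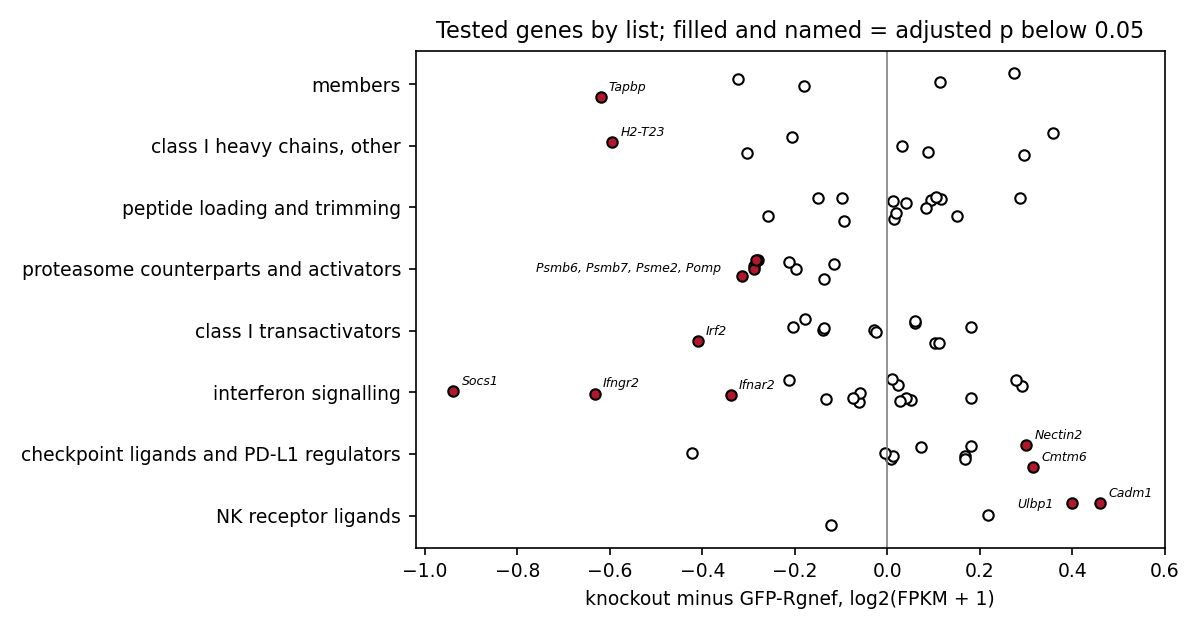
Log2 difference, knockout minus GFP-Rgnef, of the tested genes in the members and 7 wider lists, with filled, named points for an adjusted p below 0.05. Called genes lie below 0 in the members, the other heavy chains, the proteasome, transactivator and interferon lists, and above 0 in the checkpoint and NK ligand lists.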

How the data were processed

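Poly-T selected RNA of 6 libraries (3 GFP-Rgnef, 3 knockout) was sequenced, per the labels. A single table of FPKM values was deposited by the authors. The submitters' processing notes name CASAVA 1.8, TopHat2 2.0.9, DESeq2 and build mm10. The sources used here do not give the annotation or the handling of strand. GENCODE M 21 (GRCm38) gave 34490 of 35275 identifiers a symbol. Promoter windows came from RefSeq (GRCm38.p6).

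Low FPKM values were whole multiples of 1 read: a length giving whole numbers within 0.02 in every library existed for all but 1 of 19655 genes with any signal, and reads summed to 99.99% to 100.06% of the implied depth. For 14106 of them, all members but B2m and Cd274 included, this was the smallest such length, so their read counts are the fewest the values allow and counting intervals and floors depend on it.

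Limma 3.58.1 (R 4.3.3), with trend, was fitted to log2(FPKM + 1) of genes with a mean of at least 0.5 FPKM. Benjamini-Hochberg adjustment covered all 11500 of them. The pipeline was tested on simulated data. The alternatives were other pseudocounts, filters, scalings (a common sum, or an unweighted trimmed mean of M-values, in place of the weighted one planned), a replicate block, voom on recovered reads, chromosome centring and leaving out libraries. Fold changes on log2(FPKM + 1) understate low genes. Counting intervals and floors (3 reads) cover counting error only. The named genes were the members, Arhgef28, 5 set genes (a further set gene is not reported here) and up to 4 per wider list, called by smallest p or filled by abundance. The members and lists were chosen with earlier results of these data known.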

Additional observations from a re-analysis of the deposited data

How the results depend on the processing

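The count of called members (1, beside 13.4% of all tested genes) was 3 under the replicate block, where 24.1% of genes were called. With both libraries numbered 3 left out it was 2, where 20.4% of genes were called. When single libraries were left out it was 1 to 2, with 2 reached without GFP-Rgnef library 3 (12% of genes called). Of 492 values for the tested named genes under 16 settings, 391 kept their direction and side of the threshold, 77 lost a call, 18 gained one and 6 changed sign. Of 17 called genes 12 lost the call in at least 1 setting. Tapbp, Arhgef28, Socs1, Ifngr2 and Krt18 lost it in no setting that tested them. The sign changed for B2m (-0.021 to 0.235 with single libraries left out), Calr (-0.021 to 0.223), Krt19 (-0.412 to 0.163) and Cd68 (-0.100 to 0.232). The log2 ratio of Psmb10 to Psmb7 ranged from -0.269 to 0.046 when single libraries were left out, and the cause was not tested. Numbers in the labels were not borne out as a pairing of all libraries. Same-numbered deviations correlated at 0.321, -0.0199 and 0.552, the last being the highest of any across the groups. GFP-Rgnef library 2 correlated best with knockout library 1. Deviations from a group mean are tied to one another, and so are these correlations. Whether same-numbered libraries shared a preparation was not tested. With the block, H2-D1 (limma adjusted p = 0.0454) and Psmb10 (limma adjusted p = 0.0451) were called, where 24.1% of all genes were. At these depths no difference was detectable for Psmb8 and Psmb9, and for Tap1, Tap2 and Cd274 the counting intervals span wide ranges.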

Other observations

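Of 4 tested ligands of natural killer receptors 2 rose in the knockout, where 8.04% of all tested genes rose. Cadm1, an adhesion molecule read by cytotoxic lymphocytes, rose from 58.3 ± 6.96 to 80.3 ± 6.82 FPKM (SD, n = 3 each; log2 difference 0.46, limma adjusted p = 0.0222), and Ulbp1, a ligand of the activating receptor NKG2D, from 5.36 ± 0.546 to 7.39 ± 0.803 (0.40, limma adjusted p = 0.0489). Cadm1 lost its call without GFP-Rgnef library 1 or 2 or knockout library 2, with no filter and with chromosome medians removed. Ulbp1 lost its call in 9 of the 16 alternative settings, among them all fits that left out 1 library except that without GFP-Rgnef library 3. The count of 2 was 0 without GFP-Rgnef library 1 or 2 or knockout library 2, with no filter and with chromosome medians removed. Tapbpl, a relative of tapasin named after its values were seen, was at 1.58 ± 0.29 and 1.15 ± 0.095 FPKM (-0.26, limma adjusted p = 0.231). None of 11 class II genes reached the filter, and their summed level was 0.218 to 0.362 FPKM in GFP-Rgnef and 0.227 to 0.518 in knockout libraries.

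The keratin Krt18 fell from 320 ± 29.8 to 224 ± 9.21 FPKM (SD, n = 3 each; log2 difference -0.51, limma adjusted p = 0.00625), while Krt8 was at 204 and 223 FPKM. Among fibroblast markers Dcn fell from 58.9 to 32.8 FPKM (limma adjusted p = 0.0426), a call lost in 9 of the 16 alternative settings. The other 3 tested had positive differences and did not pass: Col1a1 was at 1.79 ± 1.09 and 5.52 ± 2.95 FPKM (SD, n = 3 each; limma adjusted p = 0.051, and 0.0012 without both libraries numbered 3), Pdgfra at 0.436 and 1.04 FPKM (0.49, limma adjusted p = 0.114) and Col1a2 at 0.817 and 2.02 FPKM (0.44, limma adjusted p = 0.759). Of the 6 fibroblast markers 4 were tested, none was at 0 in every library, and the 6, mostly Dcn, summed to 49.5 to 71.1 FPKM in GFP-Rgnef and 39.6 to 44.2 in knockout libraries. The part of these markers in the members' values was not tested. The genes whose profile over the 6 libraries was most like the mean standardised profile of the 5 expressed members were Espn, Vps51, Exoc7, Elp2 and Serf2, with Pearson correlations of 0.996, 0.991, 0.989, 0.989 and 0.985 among 8332 genes ranked, given as a description.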
